A study of Mus musculus with 6 samples.

Results

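The 35 transcripts described here encode the contractile apparatus of skeletal muscle fibres: 12 of the thick filament, 9 of the thin filament, 5 of the Z-disc and titin, 5 of calcium handling and 4 of energy and oxygen supply. They were chosen as a list of gene symbols with no threshold on measured values, although earlier results of these data were known, and all 35 were found among the 33696 genes of the deposited count matrices. Of the list, 14 are fast fibre genes and 6 are slow fibre genes. The libraries came from the genioglossus, the tongue muscle that pulls the tongue forward and helps keep the upper airway open, of male mice. A control group was compared with a model of obstructive sleep apnea (OSA) at week 4, by droplet single-cell RNA sequencing on the 10x Genomics platform. There were 3 control and 3 OSA samples, all labelled batch 1, and the labels used here give no strain, age or way of making the model. Count matrices were used from 4 samples, namely control replicate 2 and all 3 OSA replicates, and the other control samples were not analysed here. The labels do not say that the samples were separate animals, so every p-value measures the spread between these libraries, and fits borrow the spread of the OSA libraries for the single control.

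A sarcomere is the repeating unit of a muscle fibre, in which myosin thick filaments pull on actin thin filaments when calcium released from the sarcoplasmic reticulum binds the troponin complex. Fast and slow fibres use different genes for the same parts, so that myosin heavy chains, light chains, troponins and calcium pumps come in fast and slow versions. Mature fibres are long and multinucleate, while the dissociated cells of a droplet experiment are mostly mononuclear. Satellite cells are the resident muscle stem cells, which switch on sarcomere genes as they differentiate.

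The 4 libraries held between 70217448 and 82184912 unique molecular identifiers (UMIs, each counting 1 captured transcript) in 12618 to 15743 barcodes, of which 12229 to 15218 per library were kept after filters and removal of called doublets. Pairs among the barcode lists of all 6 samples shared between 41 and 67 sequences, 0.330% to 0.468% of the smaller list. Barcodes were clustered without the 35 transcripts and without a wider list of 57 other myofibre genes, so the levels below played no part in forming the clusters. Of 49 clusters, 32 were named from marker genes, and names are written with "-like". The samples are labelled as skeletal muscle cells, but the myofibre marker list named no cluster. The 35 transcripts together were 0.0756% of UMIs in control replicate 2 and 0.0623%, 0.0645% and 0.0450% in OSA replicates 1, 2 and 3. Of these UMIs, between 48.3% and 67.9% were Tpm2 in each library. Myh7, the slow myosin heavy chain, had 3 UMIs in the whole control library and 3, 2 and 1 in the OSA libraries, and Myh8, the perinatal heavy chain, had 0, 0, 1 and 1.

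Promoter windows are shown for the 4 genes that stand for the 4 patterns described below: Acta1, found at a low level in every class, Tpm2 in mural-like barcodes, Mybpc1 in satellite-like barcodes and Actn2 in T and NK-like barcodes. Each is the 250 bases before the RefSeq start on build GRCm38.p6, written 5′ to 3′ on the gene's strand, and capitals mark the E-box CANNTG, the sequence recognised by the basic helix-loop-helix family to which the myogenic factors belong. The deposited counts use build GRCm39, and no coordinate was carried between builds.
Acta1, chr8:123894776-123895025, minus strand: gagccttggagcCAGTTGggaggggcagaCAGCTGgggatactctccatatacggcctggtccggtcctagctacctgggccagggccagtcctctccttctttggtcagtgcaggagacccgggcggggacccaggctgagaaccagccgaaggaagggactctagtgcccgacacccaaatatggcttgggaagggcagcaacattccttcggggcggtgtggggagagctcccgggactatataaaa
Tpm2, chr4:43523555-43523804, minus strand: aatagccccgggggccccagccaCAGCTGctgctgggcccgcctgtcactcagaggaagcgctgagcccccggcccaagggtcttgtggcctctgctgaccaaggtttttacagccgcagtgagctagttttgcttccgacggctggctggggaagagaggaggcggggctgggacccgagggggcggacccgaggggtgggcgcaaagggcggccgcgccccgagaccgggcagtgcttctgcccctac
Mybpc1, chr10:88605153-88605402, minus strand: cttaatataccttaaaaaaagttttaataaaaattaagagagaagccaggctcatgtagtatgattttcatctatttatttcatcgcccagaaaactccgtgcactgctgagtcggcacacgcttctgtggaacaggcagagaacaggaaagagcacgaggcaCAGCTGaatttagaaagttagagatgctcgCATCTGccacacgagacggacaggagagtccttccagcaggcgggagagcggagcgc
Actn2, chr13:12340733-12340982, minus strand: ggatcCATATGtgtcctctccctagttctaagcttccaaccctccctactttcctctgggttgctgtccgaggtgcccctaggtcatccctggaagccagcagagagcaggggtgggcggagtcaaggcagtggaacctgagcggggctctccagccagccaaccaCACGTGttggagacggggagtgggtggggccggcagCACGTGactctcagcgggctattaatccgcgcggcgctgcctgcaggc
The windows hold 2, 1, 2 and 3 E-boxes in the order shown, and the Acta1 window also holds 1 CArG box, the serum response factor motif. RefSeq windows were matched for 29 of the 35 genes, 35 windows in all because some genes have several starts. An E-box was in 31 of these 35 windows (88.6%) and in 66.2% of all 32851 windows of this length. The MEF2 motif was in 6 of 35 (17.1%) against 2.92% of all, the CArG box in 3 of 35 (8.57%) against 1.47%, and the MCAT motif CATTCC in 10 of 35 (28.6%) against 12.6%. Both strands were searched, and matches of different motifs may overlap. Such a match is a description of letters and not of binding.

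Where the transcripts were found was compared over the 11 named classes with at least 25 kept barcodes in every library. A set of abundant fibre transcripts was present at a low level in all of them. Acta1, skeletal muscle alpha-actin, ran from 51.3 to 211.0 UMIs per 1000 barcodes across these classes in the control library, from 18.7 to 445.8 in OSA replicate 1, from 206.9 to 679.2 in OSA replicate 2 and from 16.2 to 627.3 in OSA replicate 3. Mylpf, the fast regulatory light chain, had class medians of 117.3 UMIs per 1000 barcodes in the control library and 136.7, 201.8 and 78.8 in the OSA libraries. Erythroid-like barcodes, a lineage that does not make skeletal muscle actin, held an Acta1 UMI in 8.97% of control barcodes and in 12.9%, 27.4% and 16.1% of those of OSA replicates 1, 2 and 3. In satellite-like barcodes these shares were 11.1%, 19.8%, 28.3% and 10.3%. Median depth was 3357.5, 3948, 4190 and 3293 UMIs in the erythroid-like class and 5961, 5541, 6315 and 4734 in the satellite-like class.

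With every barcode thinned to 1000 UMIs, the erythroid-like shares with an Acta1 UMI were 4.62%, 2.98%, 10.4% and 5.0% and the satellite-like shares 1.40%, 4.64%, 7.24% and 3.05%, in the same order of libraries. The thinning left out 26, 6, 10 and 12 erythroid-like and 1, 0, 3 and 2 satellite-like barcodes that were shallower. The exact binomial 95% intervals of both classes overlapped in every library, for example 1.71% to 9.78% and 0.382% to 3.54% in the control library. Intervals cover counting error only. Overlap of intervals is not a test of a difference, and few thinned barcodes held an Acta1 UMI. No conclusion on a difference in Acta1 between these classes is drawn from the thinned shares.

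**Figure D1:**
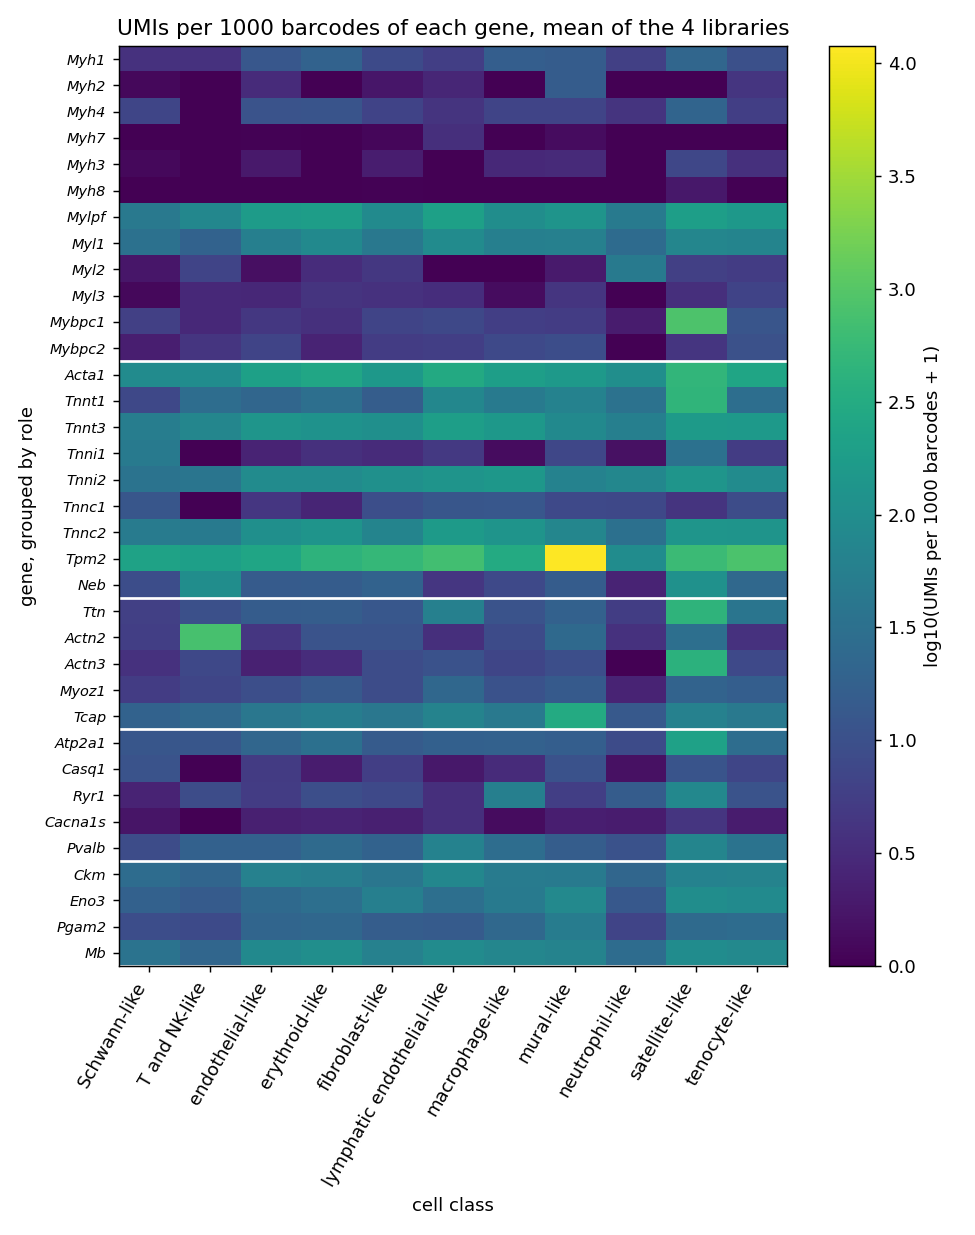
UMIs per 1000 barcodes of the 35 transcripts (rows, grouped by role) in 11 cell classes (columns), mean of the 4 libraries, on a log10 scale after adding 1. Acta1, Mylpf, Tnnt3 and Tnni2 are spread over all columns, whereas Tpm2 and Tcap stand out in mural-like, Mybpc1, Actn3 and Ttn in satellite-like and Actn2 in T and NK-like barcodes.

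Some members stood highest in 1 class throughout. The same class had the highest level per barcode in all 4 libraries for 10 of the 35: Mybpc1, Tnnt1, Ttn, Actn3 and Atp2a1 in satellite-like, Tpm2, Tcap and Myh2 in mural-like, Actn2 in T and NK-like and Myl2 in neutrophil-like barcodes. A highest level did not always mean most of the UMIs: neutrophil-like barcodes held 4.17%, 33.3%, 58.5% and 8.0% of Myl2, and satellite-like barcodes 13.1%, 65.6%, 10.6% and 55.4% of Ttn. The rank of Myl2 rested on 1 neutrophil-like UMI in the control library and 2 in OSA replicate 3. These levels are described without a test.

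Among thick filament genes, the fast heavy chains were rare in whole libraries. Myh1 had 129 UMIs in the control library and 113, 253 and 64 in the OSA libraries, and Myh4 had 126, 104, 170 and 51. Both were highest in OSA replicate 2. The heavy chains are near-identical in sequence, so reads may be shared among them. Myh2, the fast oxidative heavy chain, had 51, 53, 45 and 26 UMIs, and 26, 31, 19 and 18 of these came from a single mural-like cluster, number 20, which is led by Actg2, Colec11 and Cnn1, of which Actg2 and Cnn1 are smooth muscle genes. In that cluster Myh2 stood at 165.6, 179.2, 130.1 and 97.3 UMIs per 1000 barcodes, against 9.6, 0, 0 and 0 in the neighbouring Myh11- and Acta2-led cluster 17. The cluster was singled out after its values were seen. Myh3, the embryonic heavy chain, was at 19, 24, 12 and 13 UMIs in whole libraries and 1, 5, 1 and 1 in satellite-like barcodes.

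Mybpc1, slow-type myosin binding protein C, was the clearest satellite-like transcript of the list. Its UMIs per 1000 satellite-like barcodes were 1143 in the control library and 950.5, 914.7 and 469.7 in the OSA libraries, and 86.1%, 80.8%, 75.1% and 78.7% of each library's Mybpc1 UMIs came from that class. It was spread over the class, with a UMI in 56.1%, 49.8%, 46.4% and 30.3% of barcodes. Myl2, the slow regulatory light chain, had 24, 15, 65 and 25 UMIs in whole libraries. In OSA replicate 2, 36 of its 65 Myl2 UMIs lay in neutrophil-like cluster i21, which had 362 kept barcodes in that library and 0, 5 and 4 in control replicate 2 and OSA replicates 1 and 3.

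Among thin filament genes, Tpm2, the beta-tropomyosin that smooth muscle also uses, was a mural-like transcript. It stood at 13676 UMIs per 1000 mural-like barcodes in the control library and 12583, 9415 and 11942 in the OSA libraries. Between 78.0% and 86.9% of each library's Tpm2 UMIs came from that class. Within it, clusters 17 and 20 had between 27452 and 36896 UMIs per 1000 barcodes, and clusters 1 and 16, where the pericyte genes Kcnj8 and Abcc9 are among the leading genes, between 903.5 and 2149. Over whole libraries Tpm2 was at 497 CPM (UMIs scaled by the library's total) in the control library and 411, 311 and 306 in the OSA libraries, below the control in 3 of 3. Cluster 17 was 4.72% of kept barcodes in the control library and 3.27%, 2.62% and 2.96% in the OSA libraries, and the part of its share in the whole-library values was not tested. Within mural-like barcodes the change of Tpm2 was -0.20 ± 0.31 (log2, SE) with an adjusted p of 0.999 by edgeR's quasi-likelihood test, and -0.0056 without OSA replicate 2.

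The troponins, which make the thin filament sensitive to calcium, were read as pairs of fast and slow paralogs. In whole libraries the slow member Tnnt1 was 23.6% of the Tnnt3 and Tnnt1 UMIs in the control library and 24.96%, 16.4% and 35.8% in the OSA libraries. The slow member Tnni1 was 7.95%, 8.31%, 3.15% and 7.77% of its pair with Tnni2. Tnnc1 was 3.75%, 7.33%, 4.69% and 13.2% of its pair with Tnnc2. For the light chains, Myl2 was 1.21%, 0.777%, 2.66% and 2.23% of its pair with Mylpf, and Myl3 was 3.07%, 4.93%, 2.61% and 6.14% of its pair with Myl1. The control value lay within the range of the OSA libraries for 4 of the 5 pairs, and for Tnnc2 with Tnnc1 all OSA libraries were higher. Member-rich barcodes, described further below, bear on this: without them the Tnnc1 share was 5.62%, 7.56%, 4.94% and 13.7%, with the control inside the OSA range, and the Tnni1 share was 10.2%, 8.48%, 3.29% and 7.93%, with the control highest. The slow genes were partly those of other cells. Satellite-like barcodes gave 37.7%, 33.7%, 16.1% and 27.3% of Tnnt1 UMIs and Schwann-like barcodes gave 55.4%, 48.5%, 33.9% and 28.0% of Tnni1 UMIs.

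**Figure D2:**
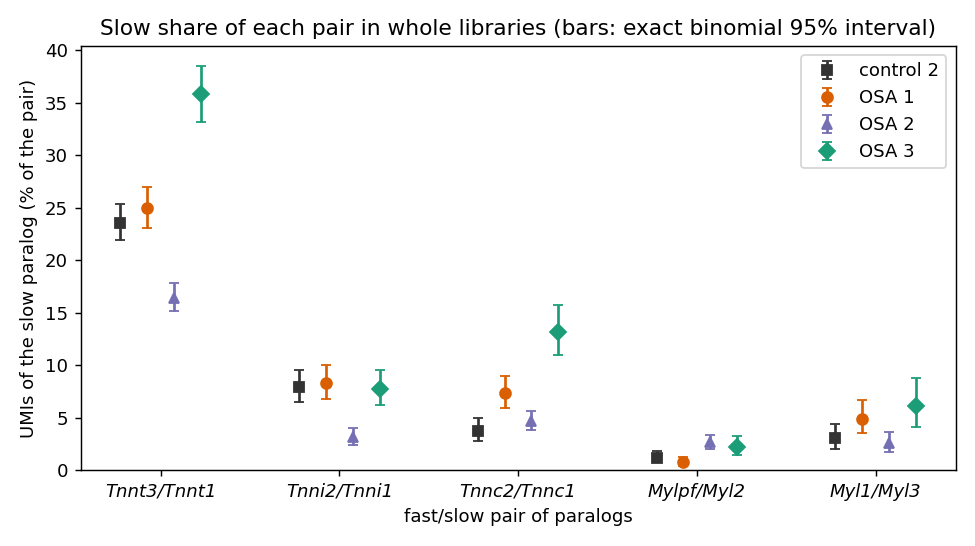
Share of the slow paralog (y axis, % of the UMIs of the pair) in whole libraries for 5 pairs (x axis), with exact binomial 95% intervals, 1 symbol per library. The Tnnt1 share is lowest in OSA replicate 2 (16.4%) and highest in OSA replicate 3 (35.8%), with the control library (23.6%) between them.

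Among Z-disc genes, Actn2, the alpha-actinin shared by heart and muscle, had its highest level in T and NK-like barcodes, at 236.6 UMIs per 1000 barcodes in the control library and 688.7, 988.5 and 1178 in the OSA libraries. It is described further below. Actn3, the fast fibre alpha-actinin, was a satellite-like transcript at 379.8, 430.3, 358.4 and 481.8 UMIs per 1000 barcodes, with a UMI in between 20.8% and 26.9% of them. In fibroblast-like barcodes it stood between 5.97 and 9.48. With barcodes thinned to 1000 UMIs, an Actn3 UMI was found in 6.64%, 2.79%, 3.45% and 7.62% of satellite-like barcodes and in at most 0.0654% of endothelial-like ones. Against erythroid-like barcodes, which held 0 thinned Actn3 UMIs, the exact binomial 95% intervals overlapped in OSA replicates 1 and 2 and not in the other libraries. Tcap, the titin cap, was mural-like, at 375.8, 286.9, 260.0 and 293.4 UMIs per 1000 barcodes, and within that class it followed cluster 17, at 1192, 1072, 1131 and 1042, against 12.7 to 109.6 in cluster 20. Ttn, titin, lay in few satellite-like barcodes, between 9 and 23 per library. Myoz1, a Z-disc calcineurin binder, was at 201 UMIs in the control library and 137, 174 and 104 in the OSA libraries.

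Among calcium handling genes, Atp2a1, the fast calcium pump SERCA1, was highest in satellite-like barcodes at 170.7, 222.9, 245.7 and 218.2 UMIs per 1000. Ryr1, the calcium release channel, had 155, 177, 226 and 435 UMIs in whole libraries, and between 34.2% and 65.7% of them were in unnamed barcodes. In immune cluster i3, which met no marker list and is led by F10, Ass1 and Ly6i, OSA replicate 3 had 154 Ryr1 UMIs in 422 barcodes, OSA replicates 1 and 2 had 27 and 12, and the control library had 0 barcodes of that cluster. Cacna1s, the voltage sensor that opens Ryr1, had 15, 23, 46 and 39 UMIs. Casq1, the calcium buffer of the reticulum, had 106, 79, 63 and 54, and Pvalb, parvalbumin, had 320, 272, 441 and 136.

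Among genes of energy and oxygen supply, Ckm, muscle creatine kinase, was at 15.8 CPM in the control library and 8.22, 16.03 and 5.42 in the OSA libraries. Mb, myoglobin, was at 10.9, 10.4, 24.2 and 8.26 CPM, and Pgam2, the muscle phosphoglycerate mutase, at 4.74, 3.75, 6.17 and 3.19. Eno3, muscle enolase, was at 8.67, 10.5, 8.77 and 5.99. For Ckm, Mb and Pgam2 the highest library was OSA replicate 2 and the lowest OSA replicate 3.

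Barcodes rich in the 35 transcripts were few. At a limit of 5% of a barcode's UMIs there were 7 in the control library and 1, 9 and 2 in OSA replicates 1, 2 and 3, 19 in all. The highest share below the limit was 4.60% and the lowest above it 5.03%. Of the 19, 18 lay in cluster 3, an unnamed cluster of 2666 kept barcodes with low UMI counts that is led by Kank3, Notch4 and Mcf2l, and 15 had fewer than 1000 UMIs. Of fast fibre genes, these barcodes held 897 UMIs of Tnnt3, 673 of Mylpf and 59 of Myh4. Of genes on neither the fast nor the slow list, they held 1998 UMIs of Acta1 and 684 of Ckm. They held 0 UMIs of Myh7, Myl2, Myl3, Tnni1, Tnnc1, Myh2, Myh3 and Myh8, and 1 of Tnnt1. A count of 0 among these 7938 member UMIs allows a share of up to 0.0378%. This limit treats the UMIs as independent draws, although they came from 19 barcodes and 3733 of them from 1 control barcode. It does not cover the spread among barcodes.

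These barcodes weighed unequally on the libraries. They held 34.4% of the summed fibre UMIs of the control library and 3.20%, 4.43% and 2.24% of those of the OSA libraries. The sum covers 30 members and leaves out Tpm2, Eno3, Mybpc1, Myh3 and Myh8, which other cells or stages also use. It keeps some members that stood highest in other cells: Actn2 was 37.8% to 79.0% of the sum in T and NK-like, Tcap 13.8% to 32.1% in mural-like and Tnnt1 7.01% to 29.6% in satellite-like barcodes. A single control barcode of 12849 UMIs, 3733 of them from the 35 transcripts, held 21.1% of the control library's summed fibre UMIs. In the member-rich barcodes Acta1 was 27.5% (exact binomial 95% interval 26.3% to 28.7%), 28.7%, 24.3% and 31.6% of the summed fibre UMIs, and in all other barcodes 13.2% (12.5% to 13.8%), 15.5%, 19.1% and 14.1%. These intervals cover counting error only, and not the spread among the 7, 1, 9 and 2 member-rich barcodes. The ratio of Acta1 to Mylpf UMIs was 2.94, 2.70, 3.28 and 3.22 in the member-rich barcodes and 0.98, 1.18, 1.78 and 1.34 in the rest. The makeup of the low-level signal, pooled over all other barcodes, thus differed from that of the member-rich barcodes in each library. By class the ratio ran from 0.70 to 2.38 in the control library. In OSA replicates 1, 2 and 3 it ran from 0.667 to 3.67, 1.29 to 3.16 and 0.429 to 7.96. It exceeded the member-rich ratio in T and NK-like barcodes of OSA replicate 1 and satellite-like barcodes of OSA replicate 3. Some class ratios rest on few UMIs. How much of the low-level signal was free RNA in the droplets was not tested.

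The sum of the 30 fibre genes over whole libraries was 244.8 CPM in control replicate 2 and 196.1, 319.7 and 135.7 CPM in OSA replicates 1, 2 and 3, a mean of 217.2 ± 93.8 (SD, n = 3). The control lay within the range of the OSA libraries. The difference of OSA from control was -0.17 on the log2 scale, with an exact two-sided permutation p of 1 over 4 libraries, where 0.25 is the smallest p that 1 against 3 allows. Without the member-rich barcodes the levels were 160.6, 189.9, 305.6 and 132.7 CPM and the difference turned to 0.38 (exact permutation p = 0.75). Without OSA replicate 3 it was 0.075.

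Class by class, the sum was highest in satellite-like barcodes in every library, at 2.46, 4.33, 3.90 and 2.88 UMIs per barcode. Class medians over the 11 classes were 0.820, 1.07, 1.88 and 0.885. Per barcode, OSA replicate 2 was the highest library in 10 of 11 classes, and the exception was the satellite-like class. By CPM it was highest in 8, OSA replicate 1 being highest in satellite-like and lymphatic endothelial-like and OSA replicate 3 in T and NK-like barcodes. In satellite-like barcodes the sum was 368.5 CPM in the control library and 613.2, 547.4 and 503.9 in the OSA libraries, above the control in 3 of 3. The difference was 0.59 on the log2 scale with an exact permutation p of 0.25, the smallest possible. Without the barcode highest in Acta1 in each library the levels were 357.0, 583.2, 450.1 and 372.6 CPM, a difference of 0.39 (exact permutation p = 0.5), and OSA replicate 3 was below the control per barcode, at 2.10 against 2.38 UMIs. In endothelial-like barcodes it was 213.5 CPM against 238.3, 435.0 and 241.7 (0.51, exact permutation p = 0.5, and 0.17 without OSA replicate 2), and in mural-like barcodes 195.1 against 183.3, 283.7 and 178.2 (0.14, exact permutation p = 1, and -0.11 without OSA replicate 2).

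**Figure D3:**
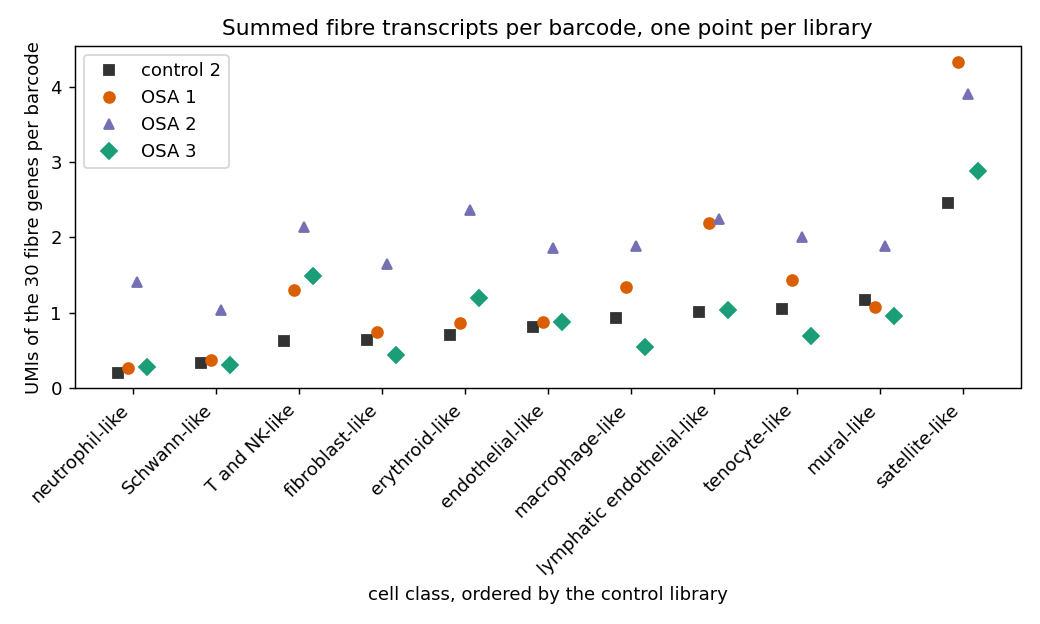
UMIs of the 30 summed fibre genes per barcode (y axis, from 0) in 11 classes (x axis, ordered by the control library), 1 symbol per library. OSA replicate 2 is the highest symbol in 10 classes, and satellite-like barcodes lie above the other classes in every library, between 2.46 and 4.33.

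The balance of fast and slow genes was measured as the log2 ratio of the 14 fast to the 6 slow genes. In whole libraries it was 3.52 in the control library and 3.40, 3.97 and 2.84 in the OSA libraries, a difference of -0.12 (exact permutation p = 0.75). The control lay inside the OSA range. Without the member-rich barcodes the ratios were 2.89, 3.35, 3.91 and 2.81 and the difference 0.46 (exact permutation p = 0.75), and without OSA replicate 3 it was 0.16. In the barcodes with at least 20% member UMIs, 4, 1, 3 and 0 per library, there were 2715, 269 and 220 fast UMIs and 0 slow UMIs in control replicate 2 and OSA replicates 1 and 2, so no ratio could be formed. In satellite-like barcodes the ratio was 0.58 in the control library and 1.55, 2.83 and 1.25 in the OSA libraries. All OSA libraries were higher there, by 1.29 on average (exact permutation p = 0.5), but leaving out Tnnt1 moved this to -0.060.

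Tests of single members compared OSA with control on counts summed per library, with edgeR's quasi-likelihood test adjusted over all genes. In whole libraries 33 of the 35 members passed the filter on low counts and 0 were called, and of all 20888 genes tested 0% were called. The members at an unadjusted p under 0.05 were 2, and 659 of all genes. DESeq2 called 0 members and 138 of all genes. Of the 33 members, 13 were higher in OSA, with a median log2 change of -0.20 against 0.01 over all genes. Of all genes tested, 51.8% were higher in OSA. Without the member-rich barcodes 24 of 33 were higher, with a median of 0.43. The 2 with an unadjusted p under 0.05 were Mybpc2, fast myosin binding protein C, at -1.01 ± 0.36 (SE), and Actn2, at 0.97 ± 0.38, both with an adjusted p of 0.990 by edgeR. Mybpc2 was at 2.13 CPM in the control library and 0.867, 1.23 and 0.856 in the OSA libraries. Of the 142 control UMIs, 67 lay in member-rich barcodes, and without these barcodes the change of Mybpc2 was -0.11 ± 0.40. The next counts, of members with all OSA libraries on 1 side of the single control, lack the same share over all genes. They are therefore not read as a result about the members. All OSA libraries were below the control for 10 members, and for 7 without the member-rich barcodes. All OSA libraries were above the control for 5 members, Actn2, Ryr1, Cacna1s, Ttn (2.62 CPM against 7.83, 4.39 and 3.35) and Tnnc1, slow troponin C (0.705 against 1.15, 1.40 and 1.39) with changes of 1.05 ± 0.47 and 1.01 ± 0.41 for the last 2. Acta1 was at 44.3 CPM against 31.2, 61.8 and 19.6, a change of -0.16 ± 0.56 that turned to 0.82 ± 0.60 without the member-rich barcodes and to 0.11 ± 0.59 without OSA replicate 3.

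In the 8 classes with at least 100 kept barcodes per library, 169 fits of a member in a class passed the filter, and 0 were called by edgeR or by DESeq2. Of these, 137 were higher in OSA and 32 lower, and 19 (11.2%) had an unadjusted p under 0.05, against 5.41% of all genes over the same classes. The share of all genes called was 0.165% in Schwann-like, 0% in endothelial-like, 0.127% in erythroid-like, 0.00601% in fibroblast-like, 1.09% in macrophage-like, 0.0565% in mural-like, 0.0345% in satellite-like and 0.0396% in tenocyte-like barcodes. The members share their libraries, so these counts are not independent of each other. A gene passed the filter on low counts if a single library held enough, and most libraries were OSA. Low-count genes high in OSA could thus pass more readily, members and other genes alike. With at least 10 counts asked in every library, 110 fits were left and 0 were called. The number of members higher in OSA was 16 of 17 in Schwann-like (median log2 change 0.78), 26 of 29 in endothelial-like (0.49), 10 of 11 in erythroid-like (0.94), 23 of 29 in fibroblast-like (0.57), 11 of 14 in macrophage-like (0.42), 19 of 29 in mural-like (0.17), 21 of 23 in satellite-like (0.71) and 11 of 17 in tenocyte-like barcodes (0.46). Over all genes tested the medians were between 0.01 and 0.04 in these classes, and between 51.2% and 52.8% of genes were higher in OSA.

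In endothelial-like barcodes edgeR gave 940 genes an unadjusted p under 0.05, and the 47 calls of DESeq2 included 0 members. Acta1 in this class was at 32.8 CPM in the control library and 40.5, 87.2 and 46.3 in the OSA libraries, after scaling with TMM (edgeR's trimmed mean of M-values). All OSA values were higher, but the change of 0.82 ± 0.58 had an adjusted p of 0.925 by edgeR. Atp2a1 was at 2.88 against 5.23, 7.95 and 5.31 CPM, a change of 1.10 ± 0.34 with an adjusted p of 0.594 by edgeR. Without OSA replicate 1 the change in this class was 1.03 for Acta1 and 1.22 for Atp2a1. Without OSA replicate 2 it was 0.41 for Acta1 and 0.87 for Atp2a1. In erythroid-like barcodes Acta1 was at 19.9 CPM in the control library and 31.1, 102.2 and 56.5 in the OSA libraries, a change of 1.63 ± 0.43 with an adjusted p of 0.0790 by edgeR, and of 0.00692 without OSA replicate 1. Without OSA replicate 2 the change was 1.03 with an adjusted p of 0.998 by edgeR, and DESeq2 gave an adjusted p of 1.000 with all libraries. The change of Acta1 in this class was 1.30 ± 0.43 without the member-rich barcodes. With all barcodes, Acta1 in this class was thus higher in all OSA libraries by CPM. The control value rested on 15 Acta1 UMIs. After thinning to equal depth, the share of barcodes with an Acta1 UMI was 4.62% in the control library and lower, 2.98%, in OSA replicate 1. It was 10.4% and 5.0% in OSA replicates 2 and 3, and few thinned barcodes held such a UMI. The source of Acta1 in this class was not tested.

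**Figure D4:**
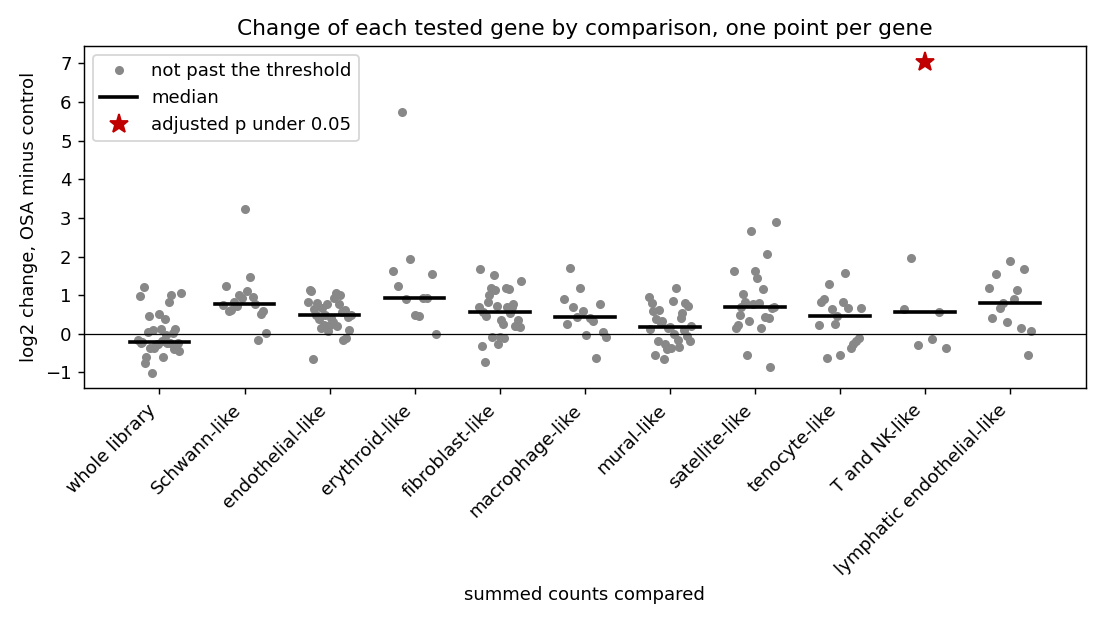
Log2 change of OSA minus control (y axis) of each member that passed the filter, in whole libraries and in 10 classes (x axis), 1 point per gene, with the median as a bar and a star where the adjusted p was under 0.05. The single star is Neb in T and NK-like barcodes, which had 0 control UMIs and passed the filter through the OSA libraries alone. Medians are above 0 in all 10 classes and at -0.20 in whole libraries, where the median is 0.43 without the member-rich barcodes (not plotted).

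In satellite-like barcodes, with 287, 323, 293 and 330 kept barcodes in control replicate 2 and OSA replicates 1, 2 and 3, Acta1 was at 29.4 CPM in the control library and 61.5, 93.5 and 119.7 in the OSA libraries (91.6 ± 29.2, SD, n = 3). The groups did not overlap, and the change was 1.63 ± 0.38 with an adjusted p of 0.622 by edgeR. The value of OSA replicate 3 rested on 1 barcode of 32672 UMIs, which held 163 of that library's 207 Acta1 UMIs and was not called a doublet. Without the barcode highest in Acta1 in each library the counts were 48, 114, 163 and 44 and the change was 1.03 ± 0.64 (adjusted p = 0.995 by edgeR). Ttn was at 11.9 CPM against 164.3, 15.5 and 82.7, with 167 of 385 Ttn UMIs of OSA replicate 1 in 1 barcode of 43198 UMIs. In OSA replicate 3, 50 of 143 Ttn UMIs lay in 1 barcode of 32672 UMIs. The change of Ttn was 2.88 ± 2.17 (adjusted p = 0.996 by edgeR). Without OSA replicate 2 the changes were 3.38 for Ttn, 1.82 for Neb and 1.60 for Acta1. Those fits rest on 1 control and 2 OSA libraries, so no adjusted p is given for them.

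Neb, nebulin of the thin filament, was at 6.72 CPM in satellite-like control barcodes and 32.0, 14.6 and 15.03 in the OSA libraries (1.62 ± 0.57, adjusted p = 0.993 by edgeR). Myl1, the fast essential light chain, was at 2.07 CPM from 4 UMIs against 13.2, 20.7 and 5.78 (2.66 ± 0.83, adjusted p = 0.847 by edgeR). With no filter on low counts Acta1 and Myl1 passed, with adjusted p of 0.000137 and 0.0499 by edgeR. Mybpc1 and Tnnt1 pointed the other way. Mybpc1 was at 169.4 CPM against 131.0, 126.0 and 89.6 (-0.55 ± 0.24), and Tnnt1 at 108.0 against 69.1, 37.6 and 71.1 (-0.87 ± 0.32), each below the control in 3 of 3 libraries and each with an adjusted p of 0.996 by edgeR. Actn3 was at 56.3 CPM against 59.3, 49.4 and 91.9 and did not separate the groups.

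**Figure D5:**
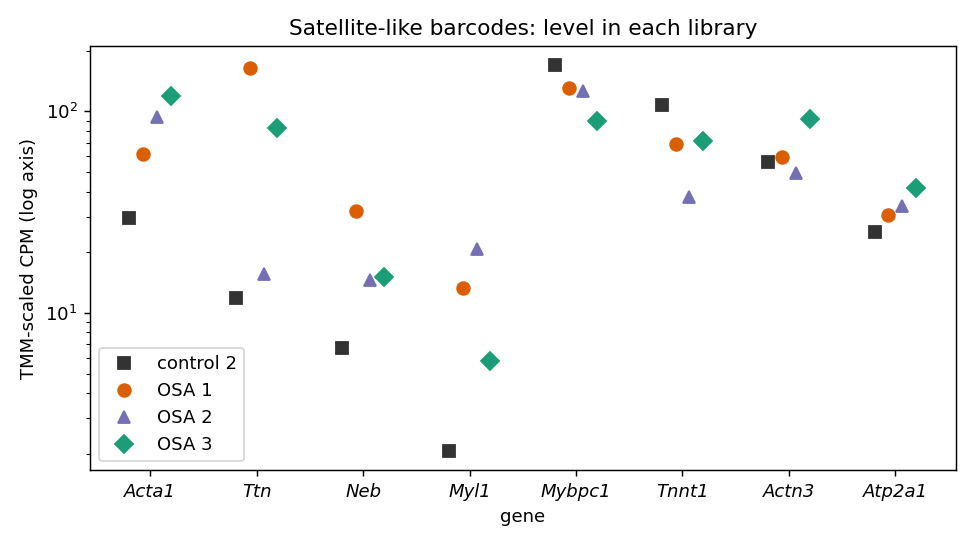
TMM-scaled CPM (y axis, log scale) of 8 members in satellite-like barcodes, 1 symbol per library. Acta1, Ttn, Neb, Myl1 and Atp2a1 are higher in all OSA libraries than in the control library, and Mybpc1 and Tnnt1 are lower, and 0 of the 8 passed the threshold.

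The T and NK-like and lymphatic endothelial-like classes, with 87 to 185 and 98 to 294 kept barcodes per library, were fitted too after the data had been seen. In T and NK-like barcodes, where 1.31% of all genes were called, 7 members were tested and 1, Neb, was called as higher. It had 0 UMIs in 131 control barcodes and 14, 11 and 25 UMIs in 106, 87 and 185 OSA barcodes (adjusted p = 0.00373 by edgeR). Taking 3 counts as the upper limit of the control's 0, the mean OSA level was 5.72 times that limit. This makes no allowance for error in the OSA counts. With 0 control UMIs, Neb passed the filter on low counts through the OSA libraries alone, so the call is not read as support for a rise. The call was lost with called doublets kept (2.53 ± 0.74, adjusted p = 0.0720 by edgeR) and without OSA replicate 3 (adjusted p = 0.0572 by edgeR). DESeq2 did not call Neb: it gave no adjusted p after its own filter on low counts, and an unadjusted p of 0.00375. Median depth in the class was 4056, 3977, 5235 and 3439 UMIs. In cluster i5, led by the T cell genes Lef1, Trbc2 and Lck, Neb had 0, 9, 7 and 23 UMIs in 68, 40, 19 and 83 barcodes.

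Actn2 in T and NK-like barcodes was at 57.6 CPM in the control library and 150.1, 173.8 and 344.6 in the OSA libraries, a change of 1.96 ± 0.56 with an adjusted p of 0.236 by edgeR and 0.0497 by DESeq2. It passed by edgeR with no filter on low counts (adjusted p = 2.81e-05) and with called doublets kept (0.0140). With 1 OSA library left out the change of Actn2 ran from 1.49 to 2.17. Most of it lay in cluster i15, led by Scart1, Trdc, Clnk, Il17a and Il23r, genes of gamma-delta and interleukin-17-producing T cells. That cluster had 3 barcodes in the control library and 21, 25 and 53 in the OSA libraries, and Actn2 stood at 16 UMIs in those 3 control barcodes and at 53, 84 and 145 in the OSA barcodes. Per 1000 barcodes of the cluster this was 5333, 2524, 3360 and 2736. An Actn2 UMI was in 8.40%, 26.4%, 29.9% and 36.2% of T and NK-like barcodes, and in 3.05%, 7.69%, 10.3% and 22.4% after thinning to 1000 UMIs, against at most 0.769% of erythroid-like barcodes. Without cluster i15, the change of Actn2 was 1.39 ± 2.01 (adjusted p = 0.988 by edgeR). In lymphatic endothelial-like barcodes, where 0.132% of all genes were called, 13 members were tested, 12 were higher in OSA and 0 were called by edgeR or DESeq2, with 2 at an unadjusted p under 0.05. Of all genes tested in that class, 52.6% were higher in OSA.

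The wider list of 57 other myofibre genes was read by counts. In whole libraries 56 of them were tested, 22 were higher in OSA and 0 were called by edgeR or DESeq2, with 5 at an unadjusted p under 0.05. Over the 8 classes there were 236 fits and 0 calls by edgeR, with 19 at an unadjusted p under 0.05, and DESeq2 made 1 call, Actc1, cardiac actin, in satellite-like barcodes. Their median log2 change was between -0.28 and 0.13 in these classes. In the added lymphatic endothelial-like class edgeR called 1 of 15, Myoz3, a Z-disc protein, which fell from 44.9 CPM in the control library to 18.2, 7.57 and 8.94 in the OSA libraries (log2 change -1.97 ± 0.44, adjusted p = 0.0276 by edgeR).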

How the data were processed

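Raw UMI counts per gene and barcode were deposited by the authors, written by Cell Ranger 9.0.1 per the file headers, on builds named GRCm39 and mm39 in the submitters' processing notes. Any removal of background RNA is not given in the sources used here. Barcodes with at least 300 genes, 500 UMIs and at most 20% mitochondrial UMIs were kept, and doublets called by Scrublet in scanpy 1.11.5 (expected rate 0.1) were removed. Clusters came from 2000 variable genes, 30 principal components, 15 neighbours and Leiden resolution 1, and needed 3 markers for a name. Counts were summed per library and class. OSA was compared with control by edgeR 4.0.16 (filterByExpr, TMM, quasi-likelihood, Benjamini-Hochberg threshold 0.05), with DESeq2 1.42.0 as an alternative. The fit was tested on simulated data: edgeR recovered 8.25% of 97 genes changed by a log2 of 1 and 54.6% of 97 changed by a log2 of 2 in whole libraries (20500 genes), 61.3% of 93 and 90.4% of 94 in endothelial-like (15883 genes), and 8.42% and 68.4% of 95 each in macrophage-like barcodes (9926 genes). False calls in these simulations were 4 in whole libraries, 8 in endothelial-like and 3 in macrophage-like barcodes. Each gene was drawn on its own, with no shift shared by many genes of a library, so recovery in the real counts was not measured. The members and lists were chosen with earlier results of these data known. Every member was placed by role, and values in each library were given for members past the threshold, the paralog pairs, Acta1, Ckm, the myosin heavy chains and Tpm2, while other members named with values were chosen after those were seen. The other 2 control samples were not analysed here.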

Additional observations from a re-analysis of the deposited data

Results flagged for a closer look

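The search was limited to members whose lower class was in a chosen list of gene results, so it is not a count over all members. Within that limit, for 3 members every OSA library lay above the control in at least 1 class and below it in 1 other. The same share over all genes is not given. The classes furthest apart are shown, a contrast between classes that was not tested. Mybpc1 was at 1.19 on the log2 scale in fibroblast-like and -0.55 in satellite-like barcodes, a gap of 1.74. Tcap, above the control throughout in 4 of 8 classes and below in 1, was at 1.58 in tenocyte-like and -0.35 in mural-like barcodes, a gap of 1.93. Tnnt1, above in 2 of 6 classes and below in 1, was at 0.76 in macrophage-like and -0.87 in satellite-like barcodes, a gap of 1.63. None of these 6 changes passed the threshold by edgeR.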

How the results depend on the processing

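No paired analysis was possible because the groups share only replicate number 2 among the matrices read. The count of members called in whole libraries was 0 under every alternative run. Over the 8 classes it was 0, against 2 with no filter on low counts and 0 to 11 when 1 OSA library was left out (11 without replicate 1, 3 without replicate 2). The difference in summed fibre genes was -0.17, against 0.38 without the member-rich barcodes and -0.56 to 0.075 with 1 OSA library left out. The difference in the fast to slow ratio was -0.12, against 0.46 without the member-rich barcodes and -0.40 to 0.16 with 1 OSA library left out. Acta1 in whole libraries turned from -0.16 to 0.82 without the member-rich barcodes and ranged from -0.71 to 0.11 with 1 OSA library left out. The satellite-like fast to slow ratio turned to -0.060 without Tnnt1, and the mural-like summed fibre genes from 0.14 to -0.11 without OSA replicate 2 (-0.11 to 0.26 over the libraries left out). The cause of these shifts was not tested. With 1 OSA library left out, a fit holds 1 control and 2 OSA libraries and measures little of the spread between libraries. Calls in such fits are therefore not read as results. Of 321 alternative values over 29 results, 294 were labelled the same, 8 reversed, 17 stronger and 2 weaker. Of the 229 for single genes, 211 kept direction and side of the threshold, 14 newly passed, 2 no longer passed and 2 reversed. The 69 values of summed fibre genes and ratios were judged by sign alone, and the counts of calls by their size. Some values could not change, such as whole-library values under a changed clustering. The added classes, the barcodes with most Acta1 or Ttn, cluster i15, levels per barcode, the ratio without Tnnt1 and the pairs without member-rich barcodes were chosen after seeing the data.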
